A study of Sus scrofa with 23 samples.

Results

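Interferon-stimulated genes are described here in kidney cortex RNA of newborn pigs. The set holds 9 genes, ISG15, MX1, MX2, IFIT1, IFIT2, IFIT3, IFIH1, IRF7 and RSAD2, of 26687 genes in the annotation, and all 9 had counts in all 23 libraries. They were chosen by symbol, and the estimated counts of all transcripts that carry a symbol were added up. Total RNA depleted of ribosomal RNA was sequenced from cortex of 23 pigs, 1 library a pig. Of these, 11 pigs were labelled CFTR-/- (CF), 6 CFTR+/- (HET) and 6 wild-type (WT), and the 12 HET and WT pigs together are called non-CF. CFTR encodes the anion channel lost in cystic fibrosis, its disruption in these pigs is constitutive, and none of the groups had a treatment named in the labels. Neither sex nor litter is given in the labels, so their part in any difference was not tested. P-values measure the spread between these pigs.

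Interferons are secreted proteins that cells release when they sense viral nucleic acid or other danger signals. Type I interferons bind the receptor IFNAR1/IFNAR2, the kinases JAK1 and TYK2 then activate a complex that holds STAT2 and IRF9, and this complex binds a DNA element called the interferon-stimulated response element (ISRE) near the start of responsive genes. The products restrict viral replication in the same and neighbouring cells, and kidney tubule and endothelial cells can both respond.

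ISRE-type letters upstream of the genes are shown first, because they are the feature that the interferon pathway reads. The motif searched was GAAA, any 2 bases and GAAA again, on both strands, in the 250 bases before each annotated gene start of Sscrofa11.1 (RefSeq). It was found in 589 of 19556 protein-coding genes (3.01%) and in 4 of the 9 genes described, with 3 matches for ISG15, 3 for IFIH1, 2 for IFIT3 and 1 for RSAD2. Each line gives the stretch that holds the matches, 5′ to 3′ on the strand of the gene, with 10 further bases on either side. Capitals mark the motif letters, on either strand, and 2 overlapping matches run together in ISG15 and in IFIH1.
ISG15, chr6:63363057-63363112, plus strand: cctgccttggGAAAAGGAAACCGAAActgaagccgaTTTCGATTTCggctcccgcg
IFIT3, chr14:101214653-101214713, plus strand: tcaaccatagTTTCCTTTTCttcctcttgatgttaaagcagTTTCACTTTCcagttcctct
IFIH1, chr15:68985149-68985316, minus strand: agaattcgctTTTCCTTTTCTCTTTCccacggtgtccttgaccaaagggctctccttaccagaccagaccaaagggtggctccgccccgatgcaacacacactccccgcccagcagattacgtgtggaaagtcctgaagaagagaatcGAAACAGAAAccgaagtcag
RSAD2, chr3:128897920-128897949, minus strand: ctgttccaatTTTCATTTTCacgagagcaa
The stretches end 89 bases before the gene start for ISG15, 17 for IFIT3, 4 for IFIH1 and 111 for RSAD2. The IFIH1 transcript with the most counts starts 332 bases inside the annotated gene start. No match was found in the windows of MX1, MX2, IFIT1, IFIT2 and IRF7, which says only that these letters are not in those windows, and the annotation of MX2 is marked as partial. The genes lie on 6 chromosomes. IFIT2 (chr14:101193421-101204292), IFIT3 (chr14:101214730-101225169) and IFIT1 (chr14:101237403-101249486) are neighbours, as are MX2 (chr13:204798633-204821612) and MX1 (chr13:204843049-204868927). ISG15 spans chr6:63363201-63364211, IFIH1 chr15:68930998-68985145, IRF7 chr2:372235-375572 and RSAD2 chr3:128880853-128897809.

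Libraries held 32901281 to 52952273 estimated counts, and a limit of 3 counts lay between 0.0567 and 0.0912 CPM (counts scaled to a fixed library total) by library, which covers counting error only. CFTR RNA was checked against the labels first. It stood at 1.27 to 3.67 CPM in the libraries labelled WT, at 9.41 to 17.5 in HET and at 12.5 to 23.5 in CF. It was thus higher in HET and CF than in WT, while HET and CF overlapped, which goes against a loss of the transcript. Groups are therefore named by the labels of their libraries. Multidimensional scaling of all genes set apart, on its second axis, pigs 1 to 6 and 12 to 18 (13 libraries, called earlier-numbered) from pigs 7 to 11 and 19 to 23 (10, later-numbered). The labels name no batch, and each genotype occurred on both sides. Defining genes of kidney cortex were present in each library.

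Compared per length, as TPM (length-adjusted transcript shares) deposited by the authors, the 9 genes were low in nearly all kidneys. Over 23 libraries the median level was 6.17 TPM for IFIT2, 4.53 for ISG15, 3.71 for MX2, 3.23 for IRF7, 3.19 for IFIH1, 2.82 for IFIT1, 2.43 for MX1, 1.92 for IFIT3 and 0.103 for RSAD2. The lowest step is the clear one, with IFIT3 above RSAD2 in 23 of 23 libraries. Other neighbours overlapped. IFIT2 was above ISG15 in 17 libraries, ISG15 above MX2 in 17, MX2 above IRF7 in 17, IRF7 above IFIH1 in 10, IFIH1 above IFIT1 in 16, IFIT1 above MX1 in 15 and MX1 above IFIT3 in 18. For scale, the listed genes of the same pathway with the highest median TPM were IFITM3 and IFITM1, membrane proteins that block viral entry, and PLSCR1, a lipid scramblase.

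One kidney stood apart. The library of CF pig 3 was the highest of 23 for 9 of the 9 genes, against 4.36% of the 20921 genes tested. In bulk RNA, more cells of a type and more RNA per cell cannot be told apart. The comparison with the other 22 libraries is a description of 1 animal, with no replicate.

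**Figure D1:**
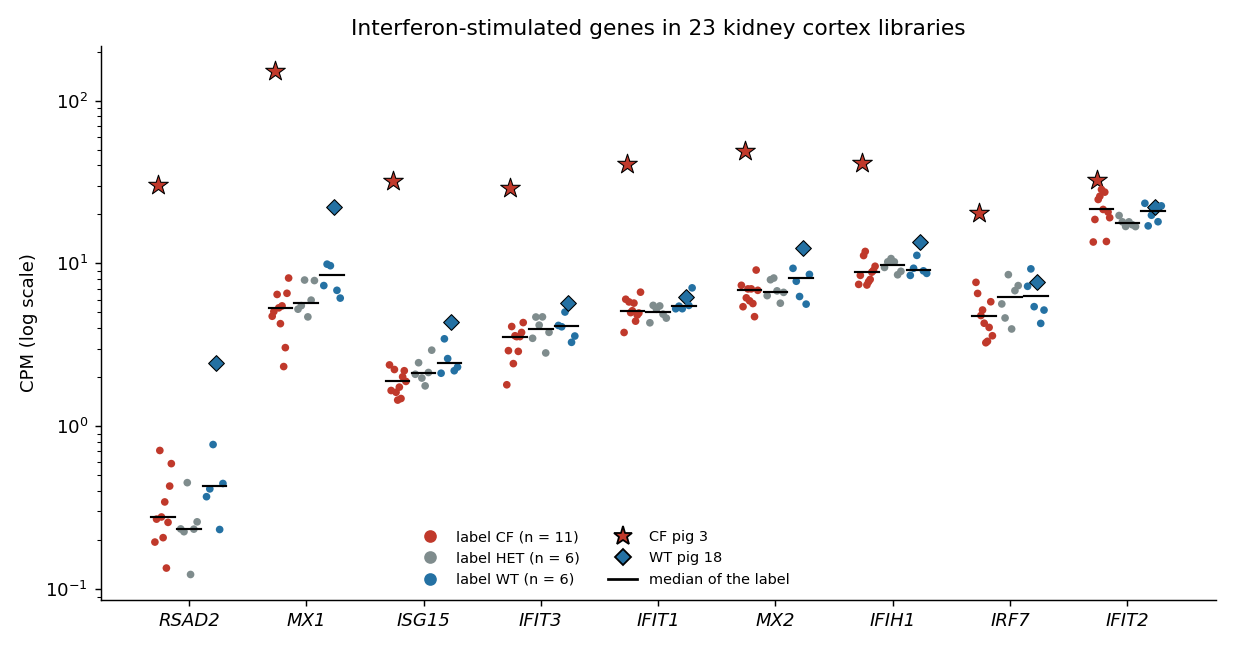
CPM of each gene (log axis) in each of 23 libraries, by genotype label, with the median of each label as a black line. The star, CF pig 3, lies above every other library for all 9 genes, by 12.3-fold over the next library for RSAD2 and by 1.14-fold for IFIT2. The diamond is WT pig 18.

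Among the antiviral effectors, RSAD2 (viperin), a radical SAM enzyme that makes a chain-terminating nucleotide, differed most. It stood at 0.135, 0.277 and 30.2 CPM in the libraries labelled CF (lowest, median, highest), at 0.123, 0.234 and 0.450 in those labelled HET, and at 0.232, 0.429 and 2.44 in those labelled WT. The 30.2 CPM of CF pig 3 rest on 1355 counts, while the other libraries had 5 to 99. This was 110-fold the median of the other libraries, and RSAD2 ranked 1 of 20921 genes by the difference of CF pig 3 from the other libraries in log2 CPM. Apart from this library and WT pig 18, which held the 2.44 CPM, the labels overlapped.

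MX1 encodes a dynamin-like GTPase that traps viral ribonucleoproteins. It had 2.33, 5.34 and 152 CPM in the libraries labelled CF, 4.70, 5.73 and 7.91 in HET, and 6.12, 8.50 and 22.2 in WT. CF pig 3 held the 152 CPM, 25.1 times the median of the others and 6.84 times WT pig 18, the next library. MX2, its neighbour in the genome and a GTPase known for acting on retroviruses, was less far out. Its values were 4.71, 6.84 and 48.9 CPM for CF, 5.70, 6.71 and 8.13 for HET, and 5.62, 8.17 and 12.4 for WT. For both genes the highest value of the labels CF and WT came from CF pig 3 and WT pig 18, and the remaining libraries of the 3 labels overlapped.

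ISG15, a ubiquitin-like protein that is conjugated to target proteins, stood at 1.45, 1.89 and 32.3 CPM in the libraries labelled CF, at 1.77, 2.11 and 2.93 in HET and at 2.12, 2.46 and 4.37 in WT. CF pig 3 was 15.2 times the median of the others. Beside that library, the CF libraries reached 2.38 CPM, and 7 of 10 lay below the lowest WT library.

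The 3 IFIT genes encode proteins that bind viral RNA and hold back its translation. IFIT1 had 3.77, 5.12 and 40.9 CPM in the libraries labelled CF, 4.32, 5.06 and 5.53 in HET and 5.27, 5.49 and 7.08 in WT. IFIT3, which stabilises IFIT1, had 1.80, 3.55 and 29.3 CPM in CF, 2.82, 3.98 and 4.70 in HET and 3.28, 4.12 and 5.70 in WT. CF pig 3 was 7.77 times the median of the others for IFIT1 and 7.95 times for IFIT3. IFIT2 behaved otherwise. It ran from 13.5 to 32.5 CPM in CF with a median of 21.5, from 16.8 to 19.7 in HET with a median of 17.6, and from 17.01 to 23.4 in WT with a median of 20.9. Its highest value was again CF pig 3, but at 1.68 times the median of the others and 1.14 times the next library, CF pig 6, so this library lay just above the range that the other CF libraries spanned.

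The sensor and the transcription factor were between IFIT2 and the other effectors in their distance from the other libraries. IFIH1 (MDA5), which detects long double-stranded RNA, had 7.37, 8.84 and 41.6 CPM in the libraries labelled CF, 8.52, 9.84 and 10.7 in HET, and 8.44, 9.17 and 13.5 in WT. IRF7, the factor that drives interferon-alpha genes, had 3.26, 4.79 and 20.4 CPM in CF, 3.96, 6.22 and 8.53 in HET, and 4.28, 6.33 and 9.26 in WT. CF pig 3 was 4.61 times the median of the others for IFIH1 and 3.85 times for IRF7, and all other libraries of the 3 labels overlapped. In TPM, the order within CF pig 3 was ISG15 at 75.9, MX1 at 69.2, MX2 at 28.7, IFIT1 at 23.7, IFIT3 at 16.3, IFIH1 at 14.99, RSAD2 at 12.4, IRF7 at 12.2 and IFIT2 at 11.6. IFIT2, the highest by median TPM over the 23 libraries, was thus the lowest in this one.

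WT pig 18 was among the 2 highest libraries for 6 of the 9 genes, against 7.57% of all genes. It stood at 2.44 CPM for RSAD2, 22.2 for MX1, 4.37 for ISG15, 12.4 for MX2, 5.70 for IFIT3 and 13.5 for IFIH1. These were 8.95, 3.68, 2.05, 1.82, 1.55 and 1.49 times the median of the other libraries. For IRF7 and IFIT1 it was the fourth highest, and for IFIT2 the eighth.

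Other interferon-stimulated genes were high in the same library. A list of 46 was used, of which 41 were in the annotation and 40 passed the filter on low counts. CF pig 3 was the highest library for 31 of the 40 and over 2-fold above the median of the others for 25, against 1.54% of all genes. The median difference on the log2 scale was 1.51 for these 40 genes and -0.0072 over all genes. The largest were XAF1, an apoptosis factor, at 16.4 CPM against a median of 0.904, and IFI6, a protein of endoplasmic reticulum membranes, at 89.4 against 6.00. OAS2, which makes the messenger that activates RNase L, stood at 213 CPM against 26.9, and USP18, the protease that removes ISG15 and damps receptor signalling, at 22.7 against 2.57. Some members of the list lay less than 2-fold above the median there, or below it. GBP1, a GTPase best known as a target of interferon-gamma, was at 32.8 CPM against a median of 26.0, IRF1 at 26.5 against 24.1, GBP2 at 13.4 against 13.5 and OASL at 0.312 against 0.256. CXCL10, a chemokine, was over 2-fold above the median, at 6.81 against 1.66, but was not at its highest, which was 13.1 in HET pig 21. These examples, apart from USP18 and IFI6, were chosen after their values were seen.

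**Figure D2:**
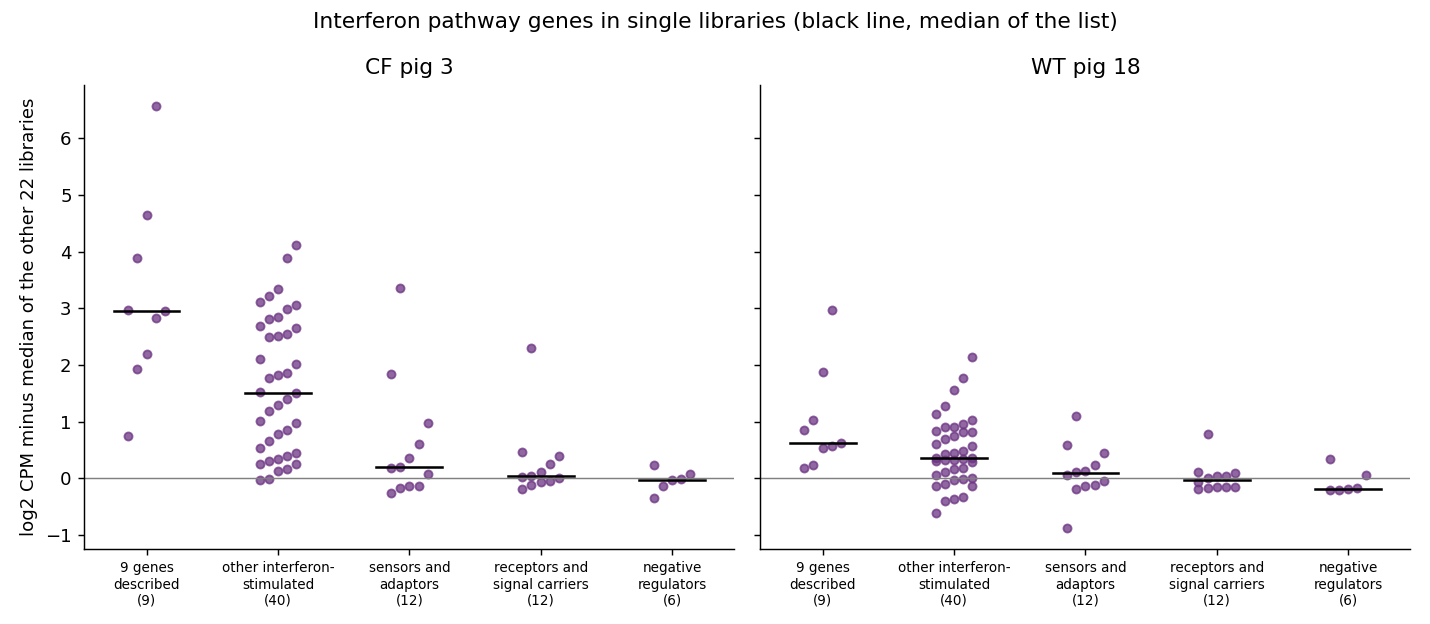
Difference in log2 CPM between 1 library and the median of the other 22 for each tested gene of 5 lists, with the median of each list as a black line. Left, CF pig 3, where the median was 2.95 for the 9 genes and 1.51 for the other interferon-stimulated genes. Right, WT pig 18, where it was 0.63 and 0.36. USP18 is drawn under the other interferon-stimulated genes only.

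Across all 20921 genes, 14 were at least 1 CPM in CF pig 3 and at least 4 times the next library. They held 5 of the 9 genes described (RSAD2, ISG15, MX1, IFIT1 and IFIT3), 7 of the other interferon-stimulated genes (IFI6, XAF1, IFI44, USP18, HERC5, DDX60 and RTP4) and the cytosolic RNA sensor DHX58. The remaining gene, ISG12(A), was in no list, stood at 78.2 CPM against a median of 8.56, and was named after its value was seen. Among 12 sensors and adaptors, DHX58 was at 24.4 CPM against a median of 2.33 and DDX58 (RIG-I) at 88.9 against 24.9, while TLR3 was at 37.1 against 41.6 and TBK1 at 27.9 against 33.5. TLR3 and TBK1 were chosen after their values were seen.

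Of the signalling complex, IRF9, its main DNA-binding subunit, stood far above the other libraries in CF pig 3. It was at 64.5 CPM against a median of 13.04, whereas STAT2 was at 111 against 103. The receptor chains IFNAR1 and IFNAR2, chosen after their values were seen, stood at 52.3 against 59.6 and at 20.4 against 19.7 CPM. Over 12 receptors and signal carriers the median log2 difference was 0.041.

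Of the 22 listed interferon ligands that the annotation holds, 13 had over 3 counts in all 23 libraries. CF pig 3 was the highest library for 0 of the 22, which is near the 4.36% of all genes tested. IFNB1 (interferon-beta), IFNG (interferon-gamma) and IFN-OMEGA-5 had at most 1 count in any library, and 0 counts in CF pig 3, which allows up to 3 counts or 0.0708 CPM. Their summed level over the list was 35.1 CPM in CF pig 3, the sixth highest, and 32.3 in WT pig 18, the tenth. Summed levels ranged from 25.4 to 39.6 CPM in the other CF libraries, from 26.6 to 38.2 in HET and from 23.8 to 43.5 in WT. The interferon-alpha and interferon-omega genes are near-identical copies, so the split of reads among them is uncertain.

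Markers of immune cells were measured in the same libraries. The 9 macrophage markers summed to 168 CPM in CF pig 3, rank 11 of 23, within the 129 to 251 of the other CF libraries. The 6 granulocyte markers summed to 4.96 CPM, the lowest of 23, against 5.92 to 40.8 in the other CF libraries, 5.38 to 76.2 in HET and 10.49 to 35.4 in WT. The 7 T and NK cell markers summed to 3.49 CPM (rank 15), the 4 B cell markers to 1.54 (rank 21), and the 2 markers of plasmacytoid dendritic cells that the annotation holds, of 4 listed, to 9.71 (rank 7). Sums over 4 markers each were 445 CPM for endothelium (rank 18) and 91.8 for erythroid cells (rank 20). The 12 kidney cortex markers summed to 9174 CPM, the lowest of 23, against 9653 to 16640 elsewhere. In WT pig 18 the granulocyte sum was 35.4 CPM, the highest WT library and rank 6 of 23, and the T and NK cell sum was 5.19 (rank 2), and their part in its levels was not tested. None of these markers was at 0 in CF pig 3.

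Genotype was compared next, to ask whether the 9 genes differ between newborn kidneys by CFTR genotype label. Across 11 CF and 12 non-CF libraries the fitted differences were mostly upward, and 0 of the 9 genes passed at an adjusted p under 0.05 in the quasi-likelihood test of edgeR, adjusted over 20921 genes, of which 0.349% passed. The largest log2 fold changes were 2.58 for RSAD2 (SE 0.877, unadjusted p = 0.00692, edgeR's adjusted p = 0.167), 1.16 for MX1 (SE 0.599, edgeR's adjusted p = 0.397) and 0.87 for ISG15 (SE 0.475, edgeR's adjusted p = 0.430). The others ranged from -0.015 for IRF7 to 0.65 for IFIT1. The median over the 9 was 0.46, beside -0.00052 over all genes. At an unadjusted p under 0.05, edgeR gave 1 of 9 (RSAD2), DESeq2 gave 3 and limma-voom and the exact Mann-Whitney U test 0, all adjusted counts being 0 as well, where 13.7% of all genes passed in edgeR, 14.3% in DESeq2, 13.1% in limma-voom and 11.6% in the Mann-Whitney test. After adjustment 2.24% of all genes passed in DESeq2, 0.22% in limma-voom and 0.22% in the Mann-Whitney test. In DESeq2 the 3 genes (MX1, ISG15 and IFIT3) were lower in CF, after it had replaced the count of CF pig 3 as an outlier.

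CF pig 3 set the direction of 7 of the 9 genes, all but IFIT2 and IRF7. Without it, 8 of the 9 log2 fold changes were negative and 1 (IFIT2, 0.15) positive, with a median of -0.33 beside -0.0088 over all genes. They were -0.69 for MX1 (SE 0.236, edgeR's adjusted p = 0.176), -0.59 for RSAD2 (SE 0.429, adjusted p = 0.593 by edgeR), -0.45 for ISG15 (SE 0.141, edgeR's adjusted p = 0.138), -0.39 for IRF7 (SE 0.165, edgeR's adjusted p = 0.282), -0.33 for IFIT3, -0.24 for MX2, -0.14 for IFIH1 and -0.053 for IFIT1. As with all libraries, 0 of 9 passed the adjusted test, beside 0.429% of all genes. At an unadjusted p under 0.05, 4 were lower (ISG15, MX1, IFIT3 and IRF7) and 0 higher, against 13.6% of all genes in either direction. The medians of the labels, which a single library moves little, were lower in CF than in non-CF for 8 of the 9 genes with CF pig 3 and for 8 without it, while 52% and 52.5% of all genes had a lower median. For ISG15, 9 of the 10 other CF libraries lay below the non-CF median, and an exact Mann-Whitney U test without CF pig 3 gave an unadjusted p of 0.0112 and an adjusted p of 0.234. With WT pig 18 left out as well, RSAD2 was at -0.015, and 8 of 9 were below 0, 4 at an unadjusted p under 0.05 (12.4% of all genes) and 0 after adjustment (0.186%).

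**Figure D3:**
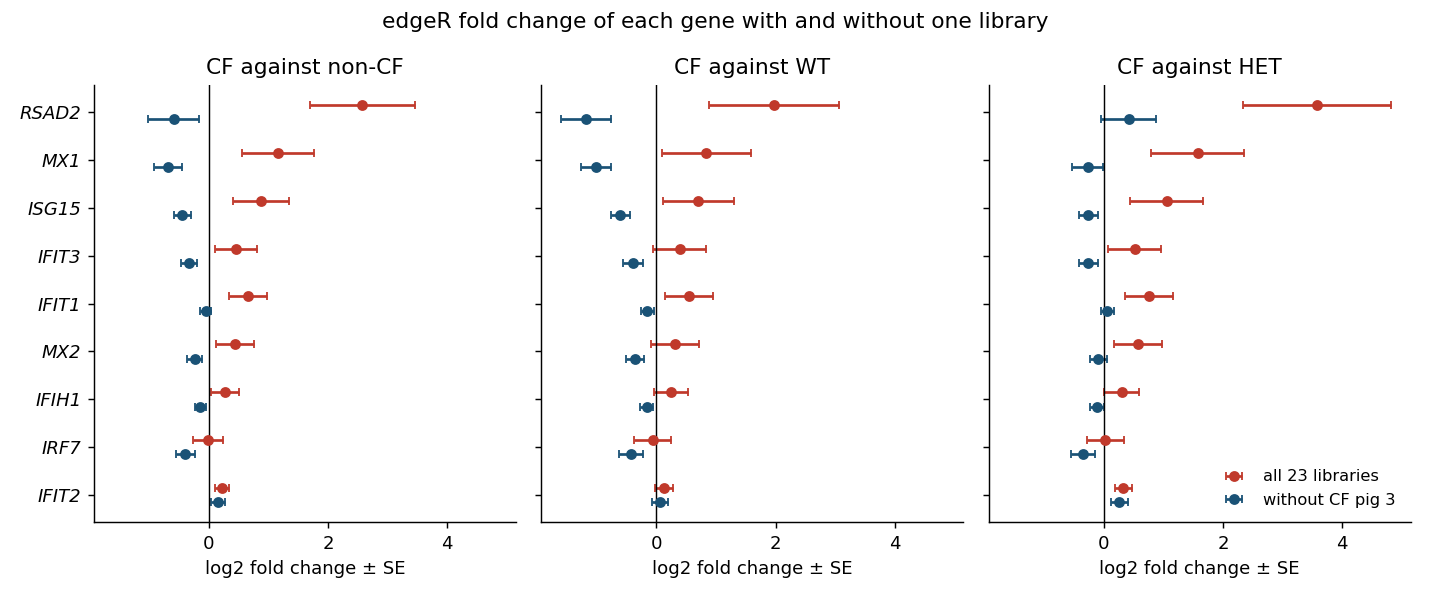
Log2 fold change of each gene in edgeR (points, with SE as bars) for the CF libraries against non-CF, WT and HET, with all 23 libraries in red and without CF pig 3 in blue. Against the WT libraries, RSAD2 moved from 1.98 to -1.19 and MX1 from 0.84 to -1.01 when this library was left out.

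Against the WT libraries alone, leaving out CF pig 3 turned the signs in the same way. With all libraries 0 of the 9 genes passed edgeR's test at an adjusted p under 0.05 (0.336% of all genes) or an unadjusted p under 0.05 (14% of all genes), and log2 fold changes ran from -0.057 for IRF7 to 1.98 for RSAD2. Without CF pig 3 they ran from -1.19 for RSAD2 to 0.060 for IFIT2. Then 6 of 9 were lower at an unadjusted p under 0.05, where 14.6% of all genes passed, and 0 passed the adjusted test, where 0.192% did. For MX1 the value was -1.01 (SE 0.249, edgeR's adjusted p = 0.0673) and for ISG15 -0.61 (SE 0.160, edgeR's adjusted p = 0.0825), each below the WT median in 10 of 10 libraries. With WT pig 18 also left out, these were -0.64 (edgeR's adjusted p = 0.209) and -0.45 (edgeR's adjusted p = 0.216), and RSAD2 moved from -1.19 to -0.40. Then 2 of 9 were lower at an unadjusted p under 0.05 (12% of all genes) and 0 passed the adjusted test (0.0696%). DESeq2 called both genes on all 23 libraries, MX1 at -0.98 (adjusted p = 0.00904 in DESeq2) and ISG15 at -0.58 (adjusted p = 0.0252 in DESeq2), beside 2.57% of all genes, and 4 of 9 were lower at an unadjusted p under 0.05, where 14.9% of all genes passed. In that fit DESeq2 replaced the count of CF pig 3 as an outlier for 7 of the 9 genes, all but IFIT2 and IRF7, and replaced no count of WT pig 18. It gave RSAD2 no p there. Among the other interferon-stimulated genes DESeq2 called 3 of 40, CMPK2, XAF1 and ZBP1, all lower, where it called 2.57% of all genes, and these names were taken after their values were seen.

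**Figure D4:**
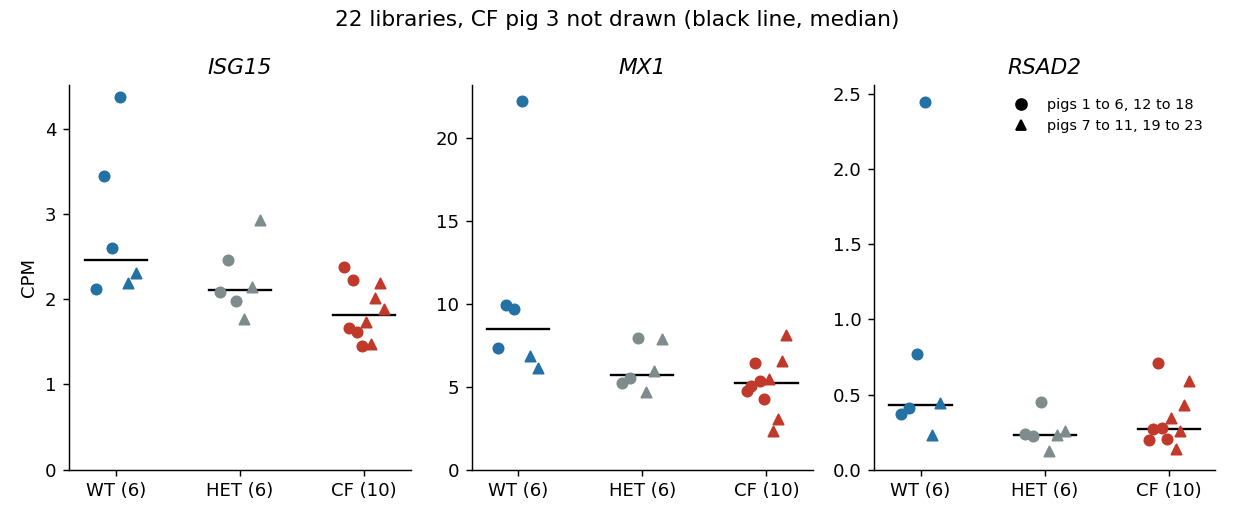
CPM of ISG15, MX1 and RSAD2 by label in the 22 libraries other than CF pig 3, with circles for earlier-numbered and triangles for later-numbered pigs and the median as a black line. For ISG15 and MX1, 7 of 10 CF libraries lie below the lowest WT library, and the highest WT library for all 3 genes is WT pig 18.

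The CF libraries were also compared with the HET libraries. Against HET, the CF log2 fold changes with all libraries ran from 0.028 (IRF7) to 3.58 (RSAD2), and edgeR called 0 of the 9 genes, as it called 0% of all genes. At an unadjusted p under 0.05, RSAD2 and IFIT2 were higher, where 9.83% of all genes passed. DESeq2 called 0 (0.261% of all genes) and found IFIT2 higher at an unadjusted p under 0.05 (10.4%), with no p for RSAD2. With CF pig 3 left out the values ran from -0.34 (IRF7) to 0.42 (RSAD2), 3 positive and 6 negative, and 0 of 9 had an unadjusted p under 0.05, beside 9.45% of all genes, with 0.00467% called. For HET against WT all 9 fitted values were below 0, from -1.61 for RSAD2 to -0.051 for IFIH1. edgeR called 0 of 9 (0.00467% of all genes, which is CFTR) and found 0 at an unadjusted p under 0.05 (8% of all genes), while DESeq2 called 0 (0.149%) and found 1 (MX1) at an unadjusted p under 0.05 (8.45% of all genes), with no p for RSAD2. MX1 was below the WT median in 6 of 6 HET libraries, with -0.74 as its log2 fold change (SE 0.838, edgeR's adjusted p = 0.858). CF pig 3 also widened the spread of this fit. With it left out MX1 (-0.74, edgeR's adjusted p = 0.557) and RSAD2 (-1.61, edgeR's adjusted p = 0.509) had an unadjusted p under 0.05, where 7.94% of all genes passed. Leaving out WT pig 18 moved this to -0.37 and RSAD2 to -0.82. The CF and HET comparisons share the WT libraries, WT pig 18 among them.

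Within the earlier-numbered pigs, which hold CF pig 3 and WT pig 18, the log2 fold changes of CF against non-CF were positive for 9 of 9 genes, from 0.24 for IRF7 to 2.96 for RSAD2. Leaving out CF pig 3 made 8 of 9 negative, with -0.91 for MX1, -0.60 for IFIT3 and -0.55 for ISG15. Within the later-numbered pigs, 5 CF against 5 non-CF, they were -0.45 for IRF7, -0.30 for MX1, -0.28 for ISG15, 0.00078 for IFIT3 and 0.40 for RSAD2, 5 of 9 being negative. The edgeR test called 0 of 9 in each of these 3 fits, where it called 0%, 0% and 2.27% of all genes. At an unadjusted p under 0.05 it found 2 of 9 higher, 4 of 9 lower and 1 of 9 lower, where 9.31%, 9.48% and 17.4% of all genes passed. A test of whether the CF effect differed between the earlier- and later-numbered pigs gave an edgeR adjusted p of 0.535 or more for the 9 genes. It called 0 of them and found 0 at an unadjusted p under 0.05, where 0.0191% and 10.1% of all genes passed, and DESeq2 was not run on it.

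Levels were compared between the pig sets as well. With genotype in the model, 9 of the 9 genes had a negative log2 fold change in later- against earlier-numbered pigs, from -2.68 for RSAD2 (SE 0.917, edgeR's adjusted p = 0.0631) to -0.13 for IFIT2. edgeR called 0 of them, beside 9.69% of all genes, and DESeq2 0, beside 13.3%. At an unadjusted p under 0.05, 4 of the 9 passed in edgeR, where 26.4% of all genes did, and 1 (IRF7) in DESeq2, where 27.1% did and which gave no p for 6 of the 9 genes. IRF7, at 4.17 CPM in the median later-numbered and 6.54 in the median earlier-numbered library, was lower in later-numbered pigs by -0.67 (SE 0.236, edgeR's adjusted p = 0.0721). Without CF pig 3 it kept -0.41 (SE 0.152, edgeR's adjusted p = 0.0975), while RSAD2 moved to -0.53, MX1 from -1.46 to -0.24 and IFIT1 from -0.47 to 0.065, so that 8 of 9 were negative and 0 called, beside 6.67% of all genes. IRF7 alone then had an unadjusted p under 0.05, where 24.1% of all genes passed. With CF pig 6 or CF pig 1 left out RSAD2 reached an edgeR adjusted p of 0.0464 and 0.0443, and with HET pig 14 left out IRF7 reached an edgeR adjusted p of 0.0444.

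Of the 40 other interferon-stimulated genes, edgeR called 2 between the pig sets, OAS2 (lower in later-numbered pigs, -1.29, edgeR's adjusted p = 0.0106) and OASL (higher, 0.83), where it called 9.69% of all genes, and both were named after their values were seen.

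The companion lists were read in the CF against non-CF comparison, where edgeR called 0 genes of each. Of the 40 other interferon-stimulated genes, 24 were higher and 16 lower, with a median log2 fold change of 0.074 and 2 at an unadjusted p under 0.05 (PSMB8 at -0.38 and PSMB9 at -0.29, subunits of the immunoproteasome), where 13.7% of all genes passed. DESeq2 called 1 of them, ZBP1, a sensor of Z-form nucleic acid, at -0.61 (adjusted p = 0.0209 in DESeq2), where it called 2.24% of all genes. Without CF pig 3, 37 of the 40 were lower and 3 higher, with a median of -0.24, while 52.3% of all genes were lower. At an unadjusted p under 0.05, 16 were lower and 0 higher, where 13.6% of all genes passed. WT pig 18, which stayed in that fit, was among the 2 highest libraries for 16 of the 40, against 7.57% of all genes. Next in p with all libraries were IFI6 at 0.98, HERC5, a ligase for ISG15, at 0.59 and USP18 at 0.65. STAT2 stood at -0.035 and IRF9 at 0.38, which became -0.080 for IRF9 without CF pig 3. Of 12 receptors and signal carriers and 12 sensors and adaptors, edgeR found 0 at an unadjusted p under 0.05. Without CF pig 3 it found 0 and 3, the 3 being the sensors MB21D1, TLR7 and DHX58, all lower in CF, and 2 with WT pig 18 left out as well. TLR7 was named after its value was seen. Of 7 negative regulators, PIAS1 (0.21, edgeR's adjusted p = 0.0789) and SOCS3 (0.75, edgeR's adjusted p = 0.241) were under that limit with all libraries, both higher in CF, and DESeq2 called PIAS1 (0.21, adjusted p = 0.0251 in DESeq2). CF pig 1 held the highest SOCS3 value, 56.1 CPM against a median of 8.90 in the libraries other than CF pig 3. That library was the highest for 14.01% of all genes. Of 14 ligands that passed the filter, 0 had an unadjusted p under 0.05. Among the cell markers, 4 of 5 granulocyte markers tested were below 0, with a median of -0.79, and of -0.67 without CF pig 3, and 0 had an unadjusted p under 0.05 in either fit. In later-numbered pigs alone their median was -1.77, 5 of 5 were below 0 and 4 (S100A8, S100A9, S100A12 and CSF3R) had an unadjusted p under 0.05, where 17.4% of all genes passed. In that fit edgeR called 3 of 12 kidney cortex markers (SLC12A3, SLC12A1 and AQP2) and 1 of 4 endothelial markers (KDR), all lower in CF, beside 2.27% of all genes. With all libraries an unadjusted p under 0.05 was found for 3 kidney cortex markers (SLC12A3 and SLC12A1 lower, CUBN higher), for AIF1 of macrophages, KDR and the erythroid RHAG (all lower), and for 0 T and NK cell, B cell and plasmacytoid dendritic cell markers. The granulocyte markers and AQP2 were named after their values were seen. The part of these cells in the levels of the 9 genes was not tested.

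The spread of most of the 9 genes was wide beside that of other genes. The residual SD of log2 CPM about the label means was 1.56 for RSAD2, 1.17 for MX1 and 0.92 for ISG15, at the 99.6th, 99.2nd and 98.2nd percentile of all genes tested, whose median was 0.25. IFIT2, at 0.31, was at the 64.0th percentile. With CF pig 3 left out, RSAD2 fell to 0.76 and stayed at the 96.6th percentile, MX1 to 0.53 at the 88.9th and ISG15 to 0.30 at the 62.6th. IFIT1 was then at percentile 31.98 and IFIH1 at 40.5, below the median gene.

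The genes rose and fell together over the 23 libraries, and this rested largely on CF pig 3. Of 36 pairs, 33 had a Pearson correlation of log2 CPM with a permutation p under 0.05 after Benjamini-Hochberg adjustment over the 36 pairs, with a median r of 0.88. By Spearman correlation 17 did, with a median rho of 0.46. In the 22 libraries other than CF pig 3 these counts were 15 and 2, with a median r of 0.43. With WT pig 18 alone left out they were 33 and 5, with a median r of 0.88, so the Spearman count also rested on that library. Without both CF pig 3 and WT pig 18 they were 2 and 1, with a median r of 0.25. Within the 13 earlier-numbered libraries 31 and 5 pairs passed, or 3 and 1 with CF pig 3 left out, and within the 10 later-numbered ones 1 and 1. The closest pair was MX1 with RSAD2, at r = 0.95 (adjusted permutation p = 0.00012, based on the smallest p that 100000 permutations give) and rho = 0.80 (adjusted permutation p = 0.00036) in 23 libraries. Without the 2 libraries farthest from the median of MX1, which are CF pig 3 and WT pig 18, it held at r = 0.70 (adjusted permutation p = 0.0169) and rho = 0.73 (adjusted permutation p = 0.00936) in 21. Within the 10 later-numbered libraries it was r = 0.61 (adjusted permutation p = 0.414). By Pearson correlation IFIT2 with IRF7 was the weakest pair, at r = 0.11, with a rho of -0.17. The lowest rho was -0.19, for ISG15 with IFIT2.

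**Figure D5:**
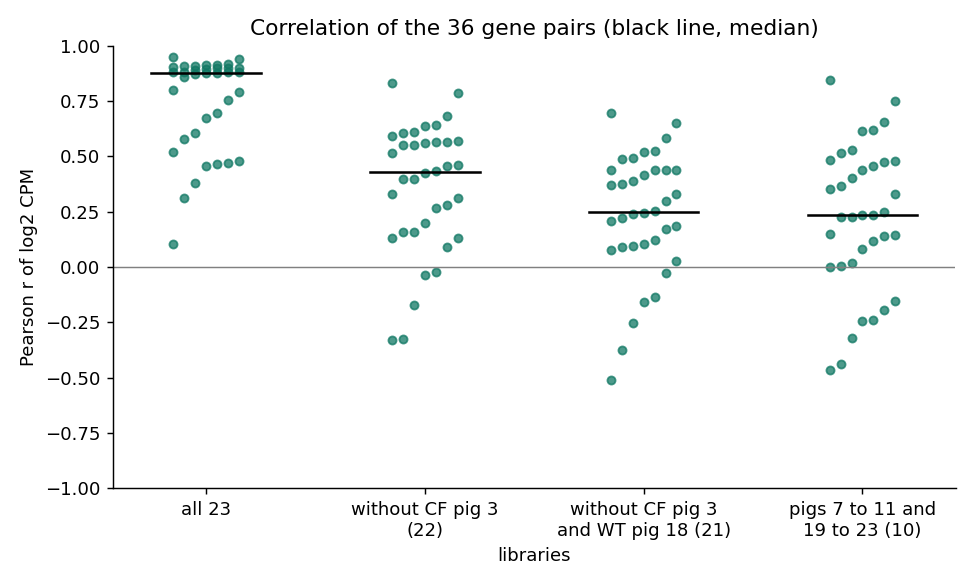
Pearson r of log2 CPM for the 36 pairs of the 9 genes over 4 sets of libraries, with the median as a black line. The median falls from 0.88 in all 23 libraries to 0.43 without CF pig 3 and to 0.25 without WT pig 18 as well.

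The genes whose log2 CPM was most like the mean of the 9 standardised profiles, over 23 libraries and 20912 genes, were HERC6 (r = 0.97), RTP4 (0.96), DHX58 (0.95), HERC5 (0.94), IFI44 (0.94), IFI6 (0.93), EIF2AK2 (0.93), USP18 (0.93), IRF9 (0.93) and DDX58 (0.92). Of these 10, 7 were on the list of other interferon-stimulated genes, and the points share CF pig 3. Without that library DHX58 ranked 1 of 20912 (r = 0.87), HERC6 ranked 3 (0.84), IFI6 5 (0.77) and IFI44 6 (0.77), while HERC5 ranked 215 (0.57) and DDX58 283 (0.55).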

How the data were processed

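Reads had been assigned by the authors to RefSeq pig transcripts (genome build Sscrofa11.1) by the program kallisto. The deposited estimated counts are given per transcript, without normalization. The TPM values deposited by the authors are the same estimates per transcript length, scaled to a constant sum per library. Whether counting used strand is not given in the sources used here. Estimated counts of 77689 transcripts were summed by symbol to 26687 genes and rounded. CPM were scaled by edgeR's TMM factors, and log2 CPM used a prior count of 2. Genes passing filterByExpr were tested with edgeR 4.0.16 (R 4.3.3), with the 3 labels in 1 fit for pairwise comparisons and CF against non-CF in another. DESeq2 1.42.0, limma-voom (limma 3.58.1) and an exact Mann-Whitney U test (coded for this report, with ranks from scipy 1.17.1) were alternatives. Other normalizations, filters, a robust fit, the pig set as a term and each library left out were also run. Correlations used 100000 two-sided permutations. All tests were two-sided. The tests were checked on simulated data that held no outlying library, so their behaviour with a library like CF pig 3 was not checked. Sequences came from the RefSeq genome with pysam 0.24.0.

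Genes were named by rule: the 9 genes, CFTR, STAT2, IRF9, IFNB1, up to 5 genes of each list by adjusted or smallest p, the 3 highest other interferon-stimulated genes by TPM and the 10 most alike. Examples outside it are marked where they stand. The genes, the lists, the split by pig number and the rule were chosen with earlier results of these data known. No 2 libraries of the same label agreed within sampling noise. A gene that the rule also names is not reported here. Metabolite data and raw reads were not analysed here.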

Additional observations from a re-analysis of the deposited data

Results flagged for a closer look

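WT pig 18 lay far from the other 5 libraries labelled WT for 2 genes. It had 22.2 CPM of MX1, with a gap to the next library that took 0.765 of the range of the 6, and 2.44 CPM of RSAD2, with a gap of 0.756 of the range. Both exceed 0.625, the 95% critical value of Dixon's test for 6 samples. The gaps were taken in CPM, and log2 CPM, which draws high values closer, was not tested. The test was run on 18 groups, the 9 genes in the WT and in the HET libraries, and chance flags about 1 group in 20. The CF group, with 11 libraries, was outside the size for which the test was used, so CF pig 3 is described in the report without it.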

How the results depend on the processing

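No paired analysis was possible because the labels give no litter by which pigs could be paired. Each pig number occurs in 1 library. Fits without both CF pig 3 and WT pig 18, and fits of earlier-numbered pigs without CF pig 3, were chosen after seeing the data. Depth limits RSAD2, which had 5 to 99 counts in all libraries but CF pig 3, and ligands such as IFNB1 and IFNG. The number of libraries, and 1 library in particular, limits the others, and the cause of each change below was not tested unless the left-out library is named.

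In CF against non-CF, signs turned as follows. DESeq2, which replaced outlying counts, gave log2 fold changes of -0.42 for ISG15, -0.66 for MX1, -0.22 for MX2, -0.045 for IFIT1, -0.30 for IFIT3, -0.13 for IFIH1, -0.0096 for RSAD2 and -0.071 for IRF9. limma-voom gave -0.032 for ISG15, -0.18 for MX1 and -0.043 for IFIT3. Ratios of medians beside the exact Mann-Whitney test were -0.26 for ISG15, -0.39 for MX1, -0.093 for MX2, -0.072 for IFIT1, -0.20 for IFIT3, -0.079 for IFIH1, -0.16 for RSAD2 and -0.014 for IRF9 on the log2 scale. Later-numbered pigs alone gave -0.28 for ISG15, -0.30 for MX1, -0.049 for IFIT1 and -0.065 for IFIH1, and earlier-numbered pigs alone gave 0.24 for IRF7 and 0.086 for STAT2. Earlier-numbered pigs without CF pig 3 gave -0.55 for ISG15, -0.91 for MX1, -0.39 for MX2, -0.056 for IFIT1, -0.60 for IFIT3, -0.17 for IFIH1, -1.05 for RSAD2, 0.059 for STAT2 and -0.17 for IRF9. Without CF pig 3 and WT pig 18 the values were -0.35 for ISG15, -0.46 for MX1, -0.15 for MX2, -0.036 for IFIT1, -0.28 for IFIT3, -0.096 for IFIH1 and -0.015 for RSAD2.

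In CF against WT, DESeq2 gave -0.58 for ISG15, -0.98 for MX1, -0.34 for MX2, -0.14 for IFIT1, -0.36 for IFIT3, -0.15 for IFIH1 and -1.20 for RSAD2. Without CF pig 3 and WT pig 18 these were -0.45, -0.64, -0.21, -0.13, -0.30, -0.064 and -0.40. In CF against HET, DESeq2 gave -0.24 for ISG15, -0.24 for MX1, -0.084 for MX2, -0.24 for IFIT3 and -0.11 for IFIH1, and the pig set as a term gave -0.10 for IRF7. In HET against WT that term gave 0.010 for IFIT3, 0.037 for IFIH1 and 0.085 for IRF7. In later- against earlier-numbered pigs, leaving out both libraries gave 0.067 for IFIT1 and 0.0051 for IFIT3.

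Leaving out each library in turn, CF against non-CF ranged from -0.45 to 0.98 for ISG15, -0.69 to 1.41 for MX1, -0.24 to 0.53 for MX2, -0.053 to 0.73 for IFIT1, -0.33 to 0.55 for IFIT3, -0.14 to 0.33 for IFIH1, -0.39 to 0.053 for IRF7, -0.59 to 3.17 for RSAD2 and -0.080 to 0.47 for IRF9. CF against WT ranged from -0.61 to 0.87 for ISG15, -1.01 to 1.21 for MX1, -0.36 to 0.46 for MX2, -0.15 to 0.63 for IFIT1, -0.39 to 0.49 for IFIT3, -0.16 to 0.35 for IFIH1, -0.43 to 0.074 for IRF7 and -1.19 to 2.76 for RSAD2. CF against HET ranged from -0.26 to 1.15 for ISG15, -0.27 to 1.70 for MX1, -0.089 to 0.66 for MX2, -0.26 to 0.61 for IFIT3, -0.11 to 0.35 for IFIH1 and -0.34 to 0.14 for IRF7. The lowest value of each of these was the fit without CF pig 3. HET against WT ranged from -0.089 to 0.052 for IFIH1 and -0.20 to 0.049 for IRF7, and later against earlier from -0.59 to 0.065 for IFIT1.

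Genes called among all genes in CF against non-CF numbered 73, and 468 by DESeq2, 150 with at least 1 CPM in 6 libraries, 47 with a robust fit, 148 with the pig set as a term, 46 by limma-voom, 46 by Mann-Whitney, 0 in earlier-numbered pigs with or without CF pig 3, 473 in later-numbered pigs, 39 without both libraries and 17 to 203 with 1 library left out. In CF against WT 72 became 550 by DESeq2, 140 with the CPM filter, 172 with the pig set, 15 without both libraries and 20 to 187 with 1 left out. In CF against HET 0 became 56 by DESeq2, 2 by library size alone, 1 without a filter, 2 with the CPM filter, 4 with the pig set and 0 to 3 with 1 left out. In HET against WT 1 became 32 by DESeq2 and 1 to 3 with 1 left out. In later against earlier 2077 became 1257 without both libraries and 1142 to 2469 with 1 left out. Of the 9 genes, DESeq2 called 2 in CF against WT, and later against earlier gave 0 to 1 with 1 library left out. Of the other interferon-stimulated genes, DESeq2 called 1 in CF against non-CF and 3 in CF against WT, and the 2 of later against earlier became 1 without both libraries and 1 to 4 with 1 left out. Correlated pairs, 33 by Pearson, became 3 in earlier-numbered pigs without CF pig 3, 1 in later-numbered pigs, 2 without both libraries and 15 to 34 with 1 left out. By Spearman 17 became 27 on the TPM scale, 5 in earlier-numbered pigs, 1 there without CF pig 3, 1 in later-numbered pigs, 1 without both and 2 to 19 with 1 left out.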

Other observations

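Some of the other interferon-stimulated genes had their highest values in kidneys other than CF pig 3, which was the highest for 31 of the 40. GBP1 peaked at 349 CPM in CF pig 5, where CF pig 3 had 32.8. CXCL10 peaked at 13.1 CPM and GBP2 at 41.6 in HET pig 21, and PSMB8 at 10.1 in the same library. IRF1 peaked at 46.4 CPM in CF pig 1, as did SOCS3, an inhibitor of cytokine receptors, at 56.1 against a median of 8.90. CF pig 1 was the highest library for 14.01% of all genes tested, CF pig 5 for 4.17% and HET pig 21 for 4.70%. These genes were chosen after their values were seen, and their peaks in single libraries received no test.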
